A study of Homo sapiens with 4 samples.

Results

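MET and RON (gene MST1R) are the receptor tyrosine kinases for hepatocyte growth factor (HGF) and macrophage-stimulating protein (gene MST1). These receptors, both ligands, the proteases HGFAC and ST14, the protease inhibitors SPINT1 and SPINT2, the docking protein gene GAB1 and the ubiquitin ligase gene CBL were followed in LoVo, a human cell line derived from a colorectal adenocarcinoma. They are 10 of the 58825 genes counted and were chosen by name, with earlier results of these data known. The 4 libraries comprise 2 biological replicates of MET+ cells, labelled as a GFP control of wild-type genotype, and 2 of MET-KO cells, in which the MET gene was knocked out with CRISPR/Cas9 and a guide RNA. Both groups grew in serum-containing medium without a further treatment, and RNA was read at the 3' end of polyadenylated transcripts. Knockout cells were selected with puromycin and picked as single clones, and the sources used here do not give the clone or clones behind the MET-KO libraries, nor whether the control cells were cloned.

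MET and RON form a family of their own among receptor tyrosine kinases. Each is made as a single-chain precursor that convertases such as furin cut in the secretory pathway, and LoVo cells are known to lack active furin, so that they carry uncleaved MET, which is phosphorylated without ligand. HGF and macrophage-stimulating protein are likewise secreted as inactive single chains, and need a serine protease such as HGFAC, matriptase (ST14) or hepsin (HPN) to become ligands. The Kunitz-type inhibitors SPINT1 and SPINT2 hold these proteases back, GAB1 docks signalling proteins on the active receptor, and CBL marks the receptor for degradation.

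The coding bases of the site at which the precursors are cut are shown because processing separates MET of LoVo cells from MET elsewhere. They come from the GENCODE version 29 transcripts MET-201 and MST1R-201 on GRCh38, and the capitals mark the run of 5 codons for lysine or arginine that precedes the cut.
MET: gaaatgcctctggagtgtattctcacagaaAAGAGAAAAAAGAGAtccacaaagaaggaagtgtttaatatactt
MST1R: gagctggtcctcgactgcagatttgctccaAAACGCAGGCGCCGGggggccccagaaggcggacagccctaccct
The MET stretch lies in exon 2 of 21, in coding sequence, at chr7:116699961-116700035 on the plus strand, and its capitals are codons 303 to 307 of 1408. The MST1R stretch lies in exon 1 of 20, in coding sequence, at chr3:49902653-49902727 on the minus strand, and its capitals are codons 305 to 309 of 1400. Reads at the 3' end do not cover these exons, so the values that follow give transcript amounts and carry no information on the sequence or the processing of the receptors.

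The libraries held 8429142 to 10286552 counts, and levels are given as CPM, the count scaled to a common library size. A gene without a count may have been present at as much as 0.276 to 0.362 CPM, the value of 3 counts in the respective libraries, a limit for counting error alone. The groups differed in much more than MET, with 54.1% of the 13801 tested genes called, which means an adjusted p of at most 0.05 from edgeR. Of 9 genes of the Y chromosome, 8 were counted in the MET-KO libraries, with 6773 and 6756 counts in sum, and 0 in the MET+ libraries. Of 10 markers of colorectal epithelium, 9 were counted in MET+ and 7 in MET-KO cells. CDX1 was at 0 in every library. CEACAM5 had 392 and 487 counts in MET+ cells and CDH17 212 and 229, and both were at 0 in each MET-KO library. VIL1 went from 43 and 58 counts in MET+ to 3 and 3 in MET-KO cells. EPCAM went from 3638 and 4245 to 1988 and 2291, and CDH1 from 1194 and 1365 to 807 and 822. CDX2 went the other way, from 525 and 648 to 1477 and 1338. Most counts of the list were on KRT18, with 50287 to 57085 per library. The 10 markers summed to 9699 to 9734 CPM in MET+ and 7321 to 8304 CPM in MET-KO cells, and 10 markers of leukocytes, endothelium, fibroblasts, mural cells and hepatocytes to 2.87 to 3.02 and 3.82 to 4.50 CPM, with PTPRC, CD3E, COL1A2 and ALB at 0 throughout. Whether both groups stem from the same stock of LoVo cells was not tested. For the genes reported below, an effect of the knockout cannot be told apart from another difference between the cell populations. In RNA from whole cultures, fewer cells that express a gene and less RNA per cell cannot be told apart either.

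MET mRNA fell 3.89-fold and stayed well expressed, while the transcript of its relative RON was low in both groups and its difference did not pass the test. MET (ENSG00000105976, chromosome 7, 116672390 to 116798386, GRCh38) gave 2794 and 3272 counts in MET+ replicates 1 and 2, and 861 and 965 in those of MET-KO. Scaled to library size, MET stood at 337 and 335 CPM in MET+ and at 84.3 and 88.7 CPM in MET-KO cells. The groups were far apart and the replicates close, with 336 ± 1.26 against 86.5 ± 3.13 CPM (SD, n = 2 each), so that 25.7% of the MET+ level remained. The log2 fold change, MET-KO minus MET+, was -1.96 with a standard error of 0.09, and the quasi-likelihood test of edgeR, adjusted by Benjamini-Hochberg over all tested genes, gave an adjusted p of 1.49e-18. The reads come from the 3' end of the transcript and cannot show whether the reading frame was broken. The count of MET therefore does not check the knockout itself. For that, the study selected clones by western blot and reported the loss of MET protein by western blot and immunofluorescence. Among the 3712 genes called lower, 541 fell further than MET.

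MST1R (ENSG00000164078, chromosome 3, 49887002 to 49903873) had 67 and 64 counts in MET+ and 47 and 56 in MET-KO cells. This was 7.32 ± 1.08 against 4.87 ± 0.387 CPM (SD, n = 2 each), and both MET-KO values lay below both MET+ values. Its log2 fold change of -0.58 had a 95% confidence interval from -1.13 to -0.03 and an edgeR adjusted p of 0.0713. The difference rests on 47 to 67 reads per library, and DESeq2's Wald test gave an adjusted p of 0.213. With 1 replicate left out at a time, the log2 fold change ranged from -0.73 to -0.42. Reads at the 3' end are not spread along the transcript. The reads of both receptors can thus be set side by side within a library without a correction for length. How completely the 3' end of each gene is counted was not examined. For each MST1R read there were 41.7 and 51.1 MET reads in MET+ cells, but 18.3 and 17.2 in MET-KO cells. By read count, MET therefore remained the more abundant of the receptor transcripts in MET-KO cells. The antisense genes AC105935.1 and AC105935.2, which overlap MST1R, were at 0 in all libraries.

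**Figure D1:**
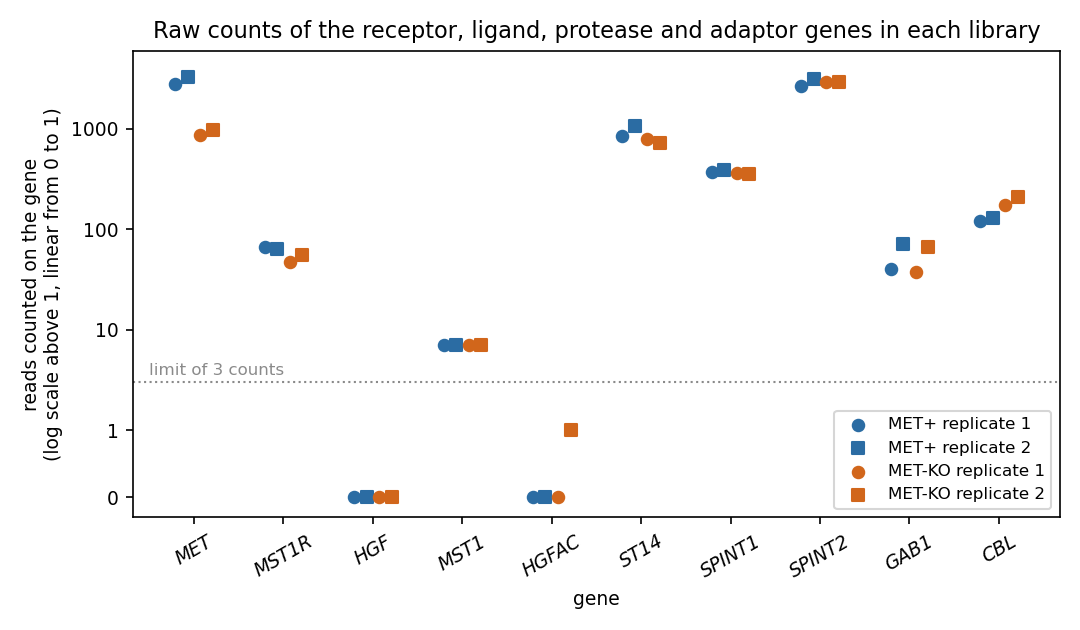
Reads counted on each of the 10 genes in the 4 libraries, on an axis that is logarithmic above 1 and linear from 0 to 1. Blue symbols are the MET+ and orange symbols the MET-KO replicates, and the dotted line marks the limit of 3 counts. MET drops from 2794 and 3272 to 861 and 965 reads, HGF and HGFAC stay at 0 or 1, and MST1 has 7 reads in each library.

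Neither ligand was counted in an amount that allowed a comparison. HGF (ENSG00000019991, chromosome 7, 81699008 to 81770438), which mesenchymal cells are known to produce, had 0 counts in all 4 libraries, which allows at most the 0.276 to 0.362 CPM given above. MST1 (ENSG00000173531, chromosome 3, 49683947 to 49689501), a plasma protein made mainly in the liver, had 7 counts in each library, which corresponds to 0.781 ± 0.0899 against 0.664 ± 0.0295 CPM (SD, n = 2 each), below the filter of the test. With so few reads no difference was detectable. It is also one whose reads can be shared with close copies. Its pseudogenes MST1L and MST1P2 on chromosome 1 had 1 to 5 and 0 to 13 counts per library, of the same order as MST1, so its value is uncertain. APEH and RNF123, which touch the ends of MST1 on the other strand, had 888 to 1250 and 263 to 357 counts.

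Of the proteases that activate the ligands, ST14 was well expressed and fell, and HGFAC was not detected beyond a single read. HGFAC (ENSG00000109758, chromosome 4, 3441887 to 3449495), a protease of plasma that cuts the HGF precursor, had 0, 0 and 0 counts and 1 count in replicate 2 of the MET-KO cells. ST14 (ENSG00000149418, chromosome 11, 130159562 to 130210376) encodes matriptase, a membrane-bound serine protease of epithelia. It had 853 and 1077 counts in MET+ and 789 and 724 in MET-KO cells. In CPM this was 103 and 110 against 77.2 and 66.6, with no overlap between the groups. The mean went from 107 ± 5.27 to 71.9 ± 7.55 CPM (SD, n = 2 each). On the log2 scale the difference was -0.57 with a standard error of 0.10 and an edgeR adjusted p of 1.81e-05. The MET-KO cells thus held 67.4% of the MET+ level, and 2470 of the genes called lower fell further.

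Of the inhibitors, SPINT1 was called lower and SPINT2 did not pass the test, and whether they differed from ST14 in their change was not tested. SPINT2 (ENSG00000167642, chromosome 19, 38244035 to 38292614), which encodes hepatocyte growth factor activator inhibitor 2, had the highest CPM of the 10 genes in MET-KO cells and was next after MET in MET+ cells. SPINT2 stood at 323 and 318 CPM in MET+ and at 290 and 271 in MET-KO cells, each MET-KO value below each MET+ value. Its log2 fold change of -0.19 (95% confidence interval -0.38 to -0.01) did not pass the test (edgeR adjusted p = 0.0667). With 1 replicate left out at a time, the log2 fold change of SPINT2 ranged from -0.25 to -0.14. SPINT1 (ENSG00000166145, chromosome 15, 40844018 to 40858207), which encodes inhibitor 1, a membrane protein that binds matriptase, had 375 and 392 counts in MET+ and 364 and 353 in MET-KO cells.

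In CPM, SPINT1 stood at 45.2 and 40.2 in MET+ and at 35.6 and 32.5 in MET-KO cells. The groups did not overlap, although the raw counts differ by little and the separation rests in part on the scaling. Its log2 fold change was -0.33 (95% confidence interval -0.58 to -0.07, edgeR adjusted p = 0.0258), and it was the weakest of the calls. It was lost with library totals in place of TMM factors (adjusted p = 0.15, edgeR), with DESeq2's Wald test (adjusted p = 0.114), and without replicate 1 of the MET+ cells (adjusted p = 0.188, edgeR) or replicate 2 of the MET-KO cells (adjusted p = 0.184, edgeR). The antisense gene SPINT1-AS1 had 191 and 215 counts in MET+ and 119 and 147 in MET-KO cells. It overlaps SPINT1 at the starts of both genes, from 40844018 to 40844387, away from the 3' ends that were read. The strand setting of the counting is not given in the sources used here. Within a library there were 3.14 and 2.88 SPINT2 reads for each ST14 read in MET+ cells and 3.75 and 4.07 in MET-KO cells, which do not overlap. The ratio of ST14 to SPINT1 was 2.27 and 2.75 in MET+ and 2.17 and 2.05 in MET-KO cells, a difference close to the spread of the MET+ pair.

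Downstream of the receptors, GAB1 did not differ beyond its spread and CBL was slightly higher without passing the test. GAB1 (ENSG00000109458, chromosome 4, 143336762 to 143474568), the docking protein best known for binding MET directly, had 40 and 72 counts in MET+ and 38 and 67 in MET-KO cells. Its CPM of 4.83 and 7.38 in MET+ and 3.72 and 6.16 in MET-KO cells overlapped between the groups. The log2 fold change of -0.31 had a 95% confidence interval from -0.92 to 0.30 (adjusted p = 0.4, edgeR's quasi-likelihood test), so neither a fall to 0.527 of the MET+ level nor a rise to 1.23 times was outside the interval. Without replicate 2 of the MET+ cells the log2 fold change was 0.03. The pseudogenes AC097658.1 and RPSAP36 within GAB1, the former on the other strand, had 21 to 32 and 3 to 7 counts. CBL (ENSG00000110395, chromosome 11, 119206276 to 119313926) had 121 and 129 counts in MET+ and 173 and 208 in MET-KO cells. This gave 14.6 and 13.2 CPM against 16.9 and 19.1 CPM, with both MET-KO values above both MET+ values. The log2 fold change was 0.38 (95% confidence interval 0.02 to 0.73, edgeR adjusted p = 0.0659). The call was made with library totals in place of TMM factors (adjusted p = 0.0264, edgeR), a setting that raised the median log2 fold change of all genes from 0.01 to 0.11, and with a filter of at least 10 counts in every library (adjusted p = 0.0475, edgeR). MCAM, which overlaps the end of CBL on the other strand, had 0, 0, 0 and 2 counts.

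Of the 10 genes, 7 were expressed enough to be tested, and HGF, MST1 and HGFAC were not. Of the 7, 3 were called lower in MET-KO cells (MET, ST14 and SPINT1), beside 26.9% of all tested genes. None (0) was called higher by edgeR's quasi-likelihood test, beside 27.2% of all tested genes. At an unadjusted p of 0.05, 1 was higher and 5 were lower, beside 29.6% and 29.1% of all tested genes. DESeq2's Wald test called 0 higher and 2 lower, beside 20.7% and 21.1% of all genes it tested. The groups did not overlap in CPM for 6 of the 7, beside 75.6% of all tested genes. The median log2 fold change of the 7 was -0.33, against 0.01 over all tested genes. With 2 libraries a group an exact two-sided permutation test of a single gene gives p = 0.333 at the lowest, and each call therefore depends on edgeR's sharing of the spread among genes.

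**Figure D2:**
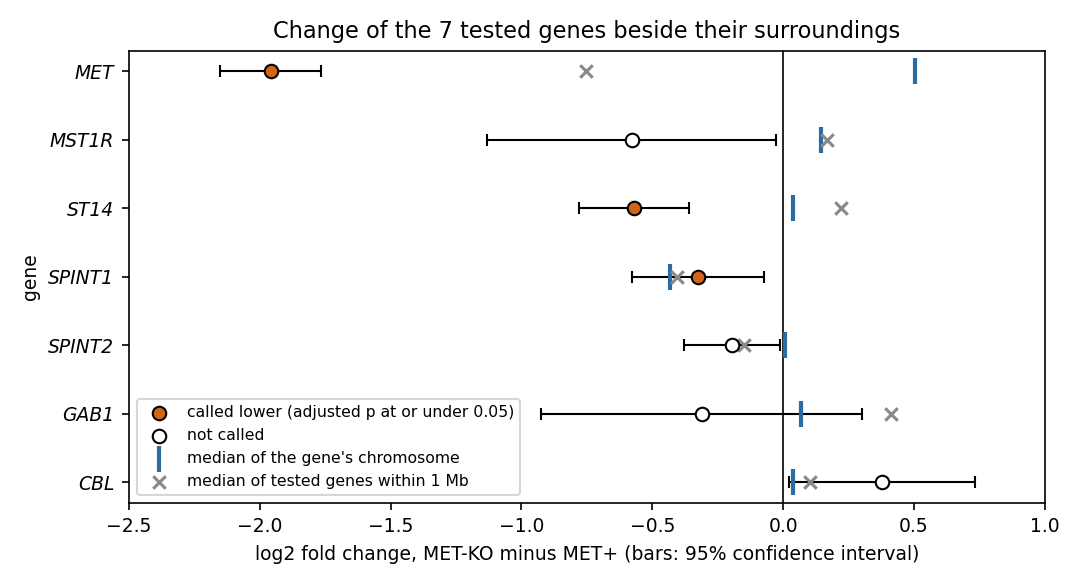
Log2 fold change (MET-KO minus MET+) of the 7 tested genes with 95% confidence intervals. Filled circles passed an adjusted p of 0.05, blue bars are the median of the gene's chromosome and grey crosses the median of tested genes within 1 Mb. MET lies at -1.96, far from the 0.50 of chromosome 7, whereas SPINT1 lies close to the -0.43 of chromosome 15.

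The chromosomes that carry these genes were not alike in the comparison, so each change was also set beside its surroundings. For the 672 other tested genes on chromosome 7 the median log2 fold change was 0.50, and MET minus that median was -2.46 (percentile 3.42 of the chromosome). SPINT1 went the other way. For the 466 other tested genes on chromosome 15 the median was -0.43, so that SPINT1 with its -0.33 stood 0.10 above its chromosome. The 47 tested genes within 1 Mb of SPINT1 had a median of -0.41. Of these, 27 were called lower and 7 higher, beside 26.9% and 27.2% of all tested genes. ST14 minus the median of chromosome 11 was -0.61, and minus that of the 9 tested genes within 1 Mb -0.79. MST1R differed by -0.74 from the 59 tested genes within 1 Mb of it, whose median was 0.17, and GAB1 by -0.72 from the 4 within 1 Mb, whose median was 0.41. CBL, on the same chromosome as ST14, lay 0.34 above the chromosome's median. SPINT2 differed from the 22 tested genes within 1 Mb by -0.04.

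Close to MET the picture differed from the rest of its chromosome. Of the 8 other tested genes within 1 Mb, 5 were called lower and 2 higher, beside 26.9% and 27.2% of all tested genes. Their median log2 fold change was -0.75, and the genes that flank MET on the side of its start fell more than MET itself. CAV1, which encodes caveolin 1, the coat protein of caveolae, had 8183 and 9527 counts in MET+ and 1050 and 1139 in MET-KO cells. The resulting log2 fold change was -3.24, with a standard error of 0.10 and an edgeR adjusted p of 2.34e-24. CAV2, which encodes its partner caveolin 2, had 3979 and 4490 counts in MET+ and 739 and 748 in MET-KO cells, with a log2 fold change of -2.74 (SE 0.10, edgeR adjusted p = 2.41e-22). TES, which encodes testin of focal adhesions, lies farther out on that side and changed by -0.29 (adjusted p = 0.0185, edgeR).

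On the other side of MET, genes were called in both directions. CAPZA2, the next tested gene and a subunit of the actin capping protein, had 505 and 475 counts in MET+ and 631 and 684 in MET-KO cells, a log2 fold change of 0.19 (adjusted p = 0.164, edgeR's quasi-likelihood test) that did not pass. ST7 fell with a log2 fold change of -1.21 (adjusted p = 1.5e-09, edgeR), and its antisense gene ST7-AS1 rose with 1.51 (adjusted p = 8.98e-05, edgeR). These genes overlap at their starts, from 116953238 to 116954334, and not at the 3' ends that were read. CFTR, the chloride channel of epithelia, changed by -1.29 (adjusted p = 0.0044, edgeR) and its neighbour CTTNBP2 by 1.25 (adjusted p = 0.00888, edgeR). Both had fewer than 80 reads per library, and CTTNBP2 had 24 and 13 in MET+ and 33 and 72 in MET-KO cells. CFTR and CTTNBP2 lie on opposite strands and overlap at their 3' ends, from 117710651 to 117715971. Reads in that stretch cannot be told apart if the counting ignored strand. Within 5 Mb of MET on each side, the median of 21 tested genes was 0.21. The part of the chromosomal differences in the fall of MET was not tested.

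**Figure D3:**
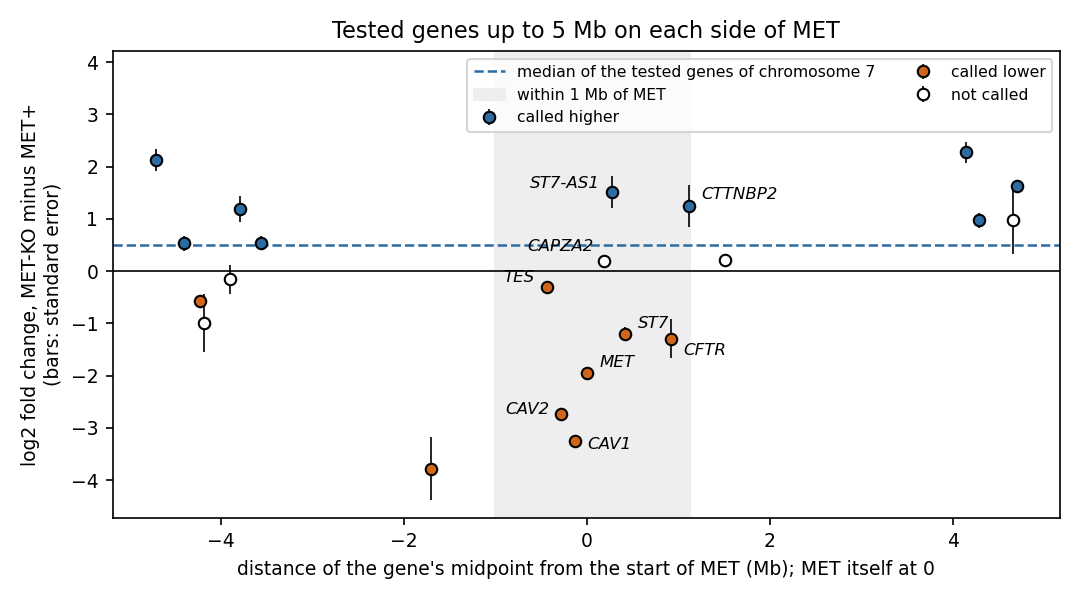
Log2 fold change (MET-KO minus MET+, bars for standard error) of tested genes by distance from the start of MET in Mb, up to 5 Mb on each side. The shaded band is the region within 1 Mb, and the dashed line is the median of chromosome 7 at 0.50. CAV1 at -3.24 and CAV2 at -2.74 lie below MET at -1.96, and CAPZA2 on the other side lies at 0.19.

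By the Euclidean distance between log2 CPM values centred on each gene's mean over the 4 libraries, the gene nearest to MET was ITGB4, the integrin beta 4 chain. ITGB4 stood at 244 and 243 CPM in MET+ and at 63.9 and 65.9 in MET-KO cells, at a distance of 0.0572. RASGRF2, BHLHE40, CCND2 and TROAP followed at 0.0623, 0.0628, 0.0775 and 0.0788, with log2 fold changes of -1.94, -2.03, -1.95 and -1.90. The 5 genes lie on chromosomes 17, 5, 3 and 12. With 2 groups of 2 libraries, the measure mainly reflects the size of the fall and the closeness of the replicates.

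The other genes of the pathway were taken from 5 lists of 59 genes in all, of which 49 were tested. Of these, 12 were called higher, 15 lower and 22 not called, with a median log2 fold change of -0.14. The calls thus went in both directions, beside 27.2% higher and 26.9% lower among all tested genes. The counts of each list below are to be read beside these same shares, and no list was tested as a set.

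Among 8 other proteases and inhibitors of ligand activation, 3 were tested, 2 were called lower and 0 higher by edgeR's quasi-likelihood test, which also gave 0 higher at an unadjusted p of 0.05. HPN, the membrane protease hepsin that can activate both ligands, had 0, 0, 0 and 1 counts, KLKB1, plasma kallikrein, had 0, 0, 1 and 5, and TMPRSS13, F11 and SERPINA5 were at 0 in every library. F12, the plasma protease factor XII, had 979 and 1207 counts in MET+ and 580 and 552 in MET-KO cells, or 121 ± 3.94 against 53.8 ± 4.26 CPM (SD, n = 2 each), with a log2 fold change of -1.17 (adjusted p = 1.17e-11, edgeR). PRSS8, which encodes prostasin, a protease that works together with matriptase, had 26 and 25 counts in MET+ and 8 and 11 in MET-KO cells, a log2 fold change of -1.64 (adjusted p = 0.00433, edgeR). It lies below the level at which genes were to be named and was added after its values were seen. PLAU, the urokinase gene, did not pass, with 54 and 96 counts in MET+ and 59 and 78 in MET-KO cells. Of the proteases listed for these ligands, F12 and ST14 thus had the highest levels in both groups.

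Among 8 proprotein convertases, the family that includes the enzyme cutting the MET precursor, 6 were tested, 2 were called higher and 4 were not called. FURIN (ENSG00000140564, chromosome 15, 90868592 to 90883458) was transcribed in both groups, with 284 and 311 counts in MET+ and 291 and 322 in MET-KO cells. The log2 fold change of -0.19 did not pass the test (95% confidence interval -0.45 to 0.08, adjusted p = 0.239, edgeR). These counts do not show whether the enzyme is active. PCSK6, a related convertase, had 109 and 122 counts in MET+ and 143 and 100 in MET-KO cells and overlapped between groups. The log2 fold change was -0.15 (adjusted p = 0.57, edgeR), and 0.13 without replicate 2 of the MET-KO cells. The log2 fold change of PCSK7 was 0.21 and did not pass.
PCSK5, another convertase of the secretory pathway, rose from 17 and 22 counts to 70 and 82 counts, a log2 fold change of 1.73 (adjusted p = 3.06e-05, edgeR), and is named after its values were seen. MBTPS1, which cuts membrane-bound transcription factors in the Golgi, rose from 63.7 ± 4.91 to 107 ± 8.13 CPM (SD, n = 2 each).

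The list of 13 receptor partners had 11 tested genes, 4 called higher and 5 called lower. The laminin receptor formed by ITGA6 and ITGB4, which is known to cooperate with MET, fell in both chains but unequally. ITGB4 went from 243 ± 0.835 to 64.9 ± 1.41 CPM and ITGA6 from 461 ± 7.44 to 261 ± 0.297 CPM (SD, n = 2 each), with log2 fold changes of -1.91 and -0.82 (adjusted p = 5.18e-18 and 1.49e-09, edgeR). For each ITGB4 read there were 1.91 and 1.88 ITGA6 reads in MET+ and 4.08 and 3.96 in MET-KO cells. CD44, a hyaluronan receptor of which certain isoforms bind HGF and MET, rose from 733 and 772 counts to 2365 and 2601 counts, a log2 fold change of 1.49 (adjusted p = 4.92e-15, edgeR). Reads at the 3' end do not separate its isoforms.
Of the plexins that associate with MET and RON, PLXNB2 and PLXNB1 were called higher (log2 fold changes 1.13 and 0.63) and PLXNB3 was at 0 in every library. NRP1, RANBP9 and SDC1 were called lower (-1.56, -1.25 and -0.95) and RANBP10 higher (0.74). Apart from CD44 and ITGB4, these genes were named after their values were seen. The tetraspanin CD151 and the neuropilin NRP2 did not pass, with log2 fold changes of 0.05 and -0.18.

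**Figure D4:**
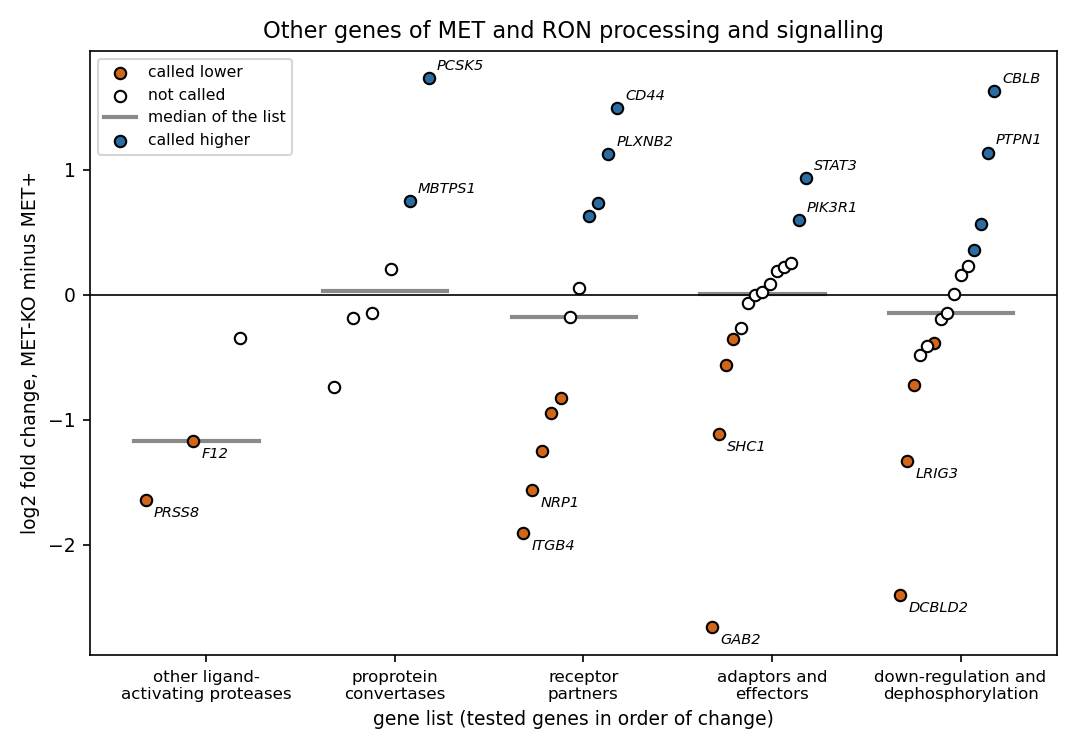
Log2 fold change (MET-KO minus MET+) of the 49 tested genes of 5 lists, each list in order of change with its median as a grey line. Blue circles were called higher, orange circles lower and white circles not called. The partners, the adaptors and the genes for down-regulation each have calls in both directions, and the values run from GAB2 at -2.66 to PCSK5 at 1.73.

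Among 15 other adaptors and effectors, 14 were tested, 2 were called higher and 4 lower. GAB2, the paralog of GAB1, changed most. It had 357 and 373 counts in MET+ and 72 and 63 in MET-KO cells, or 40.6 ± 3.43 against 6.42 ± 0.888 CPM (SD, n = 2 each), and its log2 fold change was -2.66 (adjusted p = 2.88e-15, edgeR). For each GAB1 read there were 8.93 and 5.18 GAB2 reads in MET+ cells, but 1.89 and 0.94 in MET-KO cells. SHC1, SRC and CRK were also called lower (log2 fold changes -1.11, -0.56 and -0.36), and the regulatory subunit gene PIK3R1 was called higher (0.60), all named after their values were seen. STAT3, a transcription factor that docks on MET, rose from 229 and 261 to 533 and 562 counts, a log2 fold change of 0.93 (adjusted p = 5.78e-08, edgeR). GRB2, SOS1, SOS2, PTPN11, PIK3CA, PIK3CB, PLCG1 and CRKL did not pass, with log2 fold changes between -0.27 and 0.25.

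Of 15 genes for down-regulation and dephosphorylation of receptors, all 15 were tested, 4 were called higher and 4 lower. PTPN1, a phosphatase that acts on MET, rose from 646 and 746 to 1799 and 1779 counts, or from 77.2 ± 1.05 to 170 ± 8.87 CPM (SD, n = 2 each), with a log2 fold change of 1.14 (adjusted p = 5.43e-12, edgeR). Its relative PTPN2 did not pass, with a log2 fold change of -0.19 (adjusted p = 0.18, edgeR). CBLB, the paralog of CBL, rose from 23 and 20 to 62 and 95 counts (log2 fold change 1.63, adjusted p = 7.91e-05, edgeR) and was named after its values were seen. The ratio of CBLB to CBL reads was 0.190 and 0.155 in MET+ and 0.358 and 0.457 in MET-KO cells, and CBLC did not pass. The adaptor GRB10 and EPS15 of coated pits were called higher (0.56 and 0.36), the latter with overlapping groups. GRB10 lies on chromosome 7, whose median log2 fold change, with MET left out, was 0.50. USP8, STAM and LRIG3 were called lower (-0.73, -0.39 and -1.33). These genes, too, were named after their values were seen. DCBLD2, a transmembrane receptor, fell most, from 1587 and 1916 to 396 and 376 counts, which is 194 ± 3.45 against 36.7 ± 2.97 CPM (SD, n = 2 each), with an adjusted p of 7.5e-20 (edgeR).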

How the data were processed

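RNA of 2 MET+ and 2 MET-KO LoVo cultures was made into QuantSeq 3' FWD libraries. The authors deposited raw counts of reads per Ensembl gene, without normalization. Their processing notes name GRCh38, cutadapt 1.16, STAR 2.5.4a, featureCounts 1.6.2 and DESeq2 1.18.1; the annotation and the strand setting are not given in the sources used here. Reads without molecular identifiers are not independent molecules, and ambiguous or antisense reads may be lost or shared. The 99 spike-in rows were at 0 and were left out. Names and positions come from GENCODE version 29, which holds 58552 of 58825 IDs.

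Libraries were scaled by TMM (factors 0.949 to 1.06) and filtered with filterByExpr, and the condition was tested with edgeR 4.0.16 in R 4.3.3 by its quasi-likelihood test, with p-values of 13801 genes adjusted by Benjamini-Hochberg (threshold 0.05). CPM are counts per 1e6 of the scaled library. Standard errors are the absolute log2 fold change divided by the square root of the test's F statistic. Confidence intervals are built from them and are unadjusted. Replicates of a group differed by more than counting noise (chi-square per degree of freedom 5.45 and 4.86). Alternatives were DESeq2 size factors, library totals, the Wald test of DESeq2 1.42.0, other filters, a replicate block, thinning and leaving out each replicate. The members and lists were chosen with earlier results of these data known. A listed gene is not reported here, and its list is counted without it. Genes named from a list are the called ones with the largest positive and negative change above a mean log2 CPM of 3, and FURIN, PCSK6 and HPN, besides the neighbours within 1 Mb of MET and the 5 genes most like it.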

Additional observations from a re-analysis of the deposited data

How the results depend on the processing

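MET and ST14 were called lower under every alternative run. Library totals in place of TMM factors raised the median log2 fold change of all genes from 0.01 to 0.11, which ended the call of SPINT1 (-0.23), made that of CBL (0.48) and so called 1 of the 10 genes higher. Requiring 10 counts in every library also called CBL (0.42), 1 gene higher, and DESeq2's Wald test ended the call of SPINT1 at -0.33. With 1 replicate left out at a time, with the lone sample assumed to vary like the other group, the log2 fold change ranged from -1.99 to -1.92 for MET, -0.68 to -0.46 for ST14, -0.42 to -0.24 for SPINT1, -0.73 to -0.42 for MST1R, -0.25 to -0.14 for SPINT2, -0.72 to 0.032 for GAB1 and -0.48 to 0.13 for PCSK6, and 2 to 4 of the genes were called lower. The cause of these changes was not tested. The replicate number as a block gave 7055 calls in place of 7467 and -1.96 for MET, and changed no call among the 10 genes. Same-numbered samples did not deviate together (correlation -0.02). DESeq2's Wald test called 5760 genes. The wider window of 5 Mb turned the median around MET from -0.75 to 0.21 and that around SPINT2 from -0.15 to 0.02, and gave 0.97 for HGF, 0.13 for MST1, 0.10 for HGFAC, -0.31 for SPINT1, 0.32 for GAB1 and 0.18 for CBL. The alternatives for the other pathway genes were chosen after seeing the data, and gave 9 to 14 genes called higher and 12 to 15 lower. Depth limits MST1R, GAB1 and MST1, which had 7 to 72 reads per library.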
